A study of Mus musculus with 12 samples.

Results

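Cx3cr1, Ccr1, Ccr1l1, Ccr2, Ccr3, Ccrl2 and Xcr1 are 7 chemokine receptor genes on mouse chromosome 9. They were taken by name from a table of read counts that lists 55421 genes, and 6 of the 7 passed the filter on low counts that left 18842 genes for testing. Ccr3 did not pass it. The genes were chosen by measured values, their levels and differences between the genotypes in these same libraries, so every value that compares knockout with control for these genes is given as a description, with no test. That includes the difference between the genotypes in the recovery change, here called the interaction. Changes between the time points within a genotype were tested, but they use the same libraries. Their p-values for these genes are therefore not independent of the choice.

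On GRCm38 chromosome 9, by the GENCODE M21 annotation, Ccrl2 (ENSMUSG00000043953.12) spans 111054486 to 111057519 on the minus strand, Cx3cr1 (ENSMUSG00000052336.7) spans 119901616 to 120069879 on the minus strand, Xcr1 (ENSMUSG00000060509.5) spans 123852315 to 123862029 on the minus strand, and Ccr1 (ENSMUSG00000025804.5) spans 123962124 to 123968692 on the minus strand. Further along, Ccr1l1 (ENSMUSG00000064039.4) spans 123977243 to 123978408 on the minus strand, Ccr3 (ENSMUSG00000035448.9) spans 124021972 to 124031689 on the plus strand and Ccr2 (ENSMUSG00000049103.14) spans 124101950 to 124113557 on the plus strand. All are protein-coding, and each value is for the whole gene.

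Chemokines are small secreted proteins that guide immune cells, and most of their receptors signal through inhibitory G proteins to calcium, phosphoinositide 3-kinase and the small GTPase Rac. Arrestins and RGS proteins end the signal. CX3CR1 binds the membrane-anchored neuronal chemokine CX3CL1 and is a standard marker of microglia, the resident macrophages of the brain. CCR1 binds CCL3, CCL5 and related chemokines, CCR2 binds CCL2 and CCL7 and marks inflammatory monocytes, CCR3 is the eotaxin receptor of eosinophils, and XCR1 marks cross-presenting dendritic cells. CCRL2 is an atypical receptor that holds chemerin on the cell surface and does not signal through G proteins. CCR1L1 is a close relative of CCR1 whose ligands are not well established.

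The cells were microglia sorted from brains of mice labelled male that were 35 to 40 days old by the sample fields and 30 to 45 days old by the protocol. They were cultured for 6 h without oxygen and glucose (OGD, which mimics ischaemia in a dish) and taken at once or after 24 h of recovery. All 4 groups carried the Cx3cr1EGFP reporter, the control mice (WT) alone and the knockout mice (KO) together with Slc2a5-/-, a deletion of the gene of the fructose transporter GLUT5. With 3 libraries each, the groups are WT-OGD and KO-OGD without recovery, and WT-recovery and KO-recovery with it. The labels name neither the number of reporter alleles per mouse nor the strain, no library without OGD was analysed, and it was not stated whether each replicate had its own animal or culture, so p-values measure only the spread between these libraries.

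Total counts were 31509859 to 45347118 in the OGD libraries and 9885259 to 19915479 in the recovery libraries. Slc2a5, which lies on chromosome 4, had 40 to 58 counts per WT-OGD library, 4 to 17 per KO-OGD library and 0 to 2 in the recovery libraries, where it could not check the genotype. Some libraries stood apart. WT-recovery replicate 1 is described as without recovery in its treatment field and with recovery in its title, by which it was grouped. Xist, the transcript of the inactive X chromosome, had 0 to 3 counts in the WT-recovery libraries and 4101 to 10232 in the other 9, although all were labelled male. KO-recovery replicates 1 and 3 alone held skeletal muscle actin Acta1 at 36.4 to 37.6 CPM (the usual depth-scaled count, here on TMM-scaled library sizes), against at most 0.98 in the other 10 libraries, and the cartilage collagen gene Col2a1 at 18.7 to 20.9 CPM, against at most 1.63. Mitochondrial genes took 18.4% and 10.4% of the counts in WT-recovery replicate 1 and KO-recovery replicate 2, the 2 highest shares.

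Close copies matter because reads that match more than 1 gene can be assigned to the wrong one, and the handling of such reads was not given in the sources used here. The coding sequences of Ccr1 and Ccr1l1 were 76.3% identical, the highest value among the 21 pairs of the 7 genes, followed by Ccr1 with Ccr3 at 69.6% and Ccr1l1 with Ccr3 at 66.8%. The remaining 18 pairs lay between 53.6% and 62.0%. No 50-base word of the annotated exons of Ccr1, Ccr1l1, Ccr3 or Ccrl2 occurred in the exons of another gene, whereas 1.06% of the words of Cx3cr1, 1.63% of Xcr1 and 1.91% of Ccr2 did. With 30-base words Ccr1 shared 2 words with Ccr1l1 and 18 with Ccr3. The 2 closest aligned 50-base coding stretches of Ccr1 and Ccr1l1 are printed because they show how similar the pair can be, with the single differing base in capitals. They lie at chr9:123964242-123964291 and chr9:123978156-123978205 of GRCm38, both on the minus strand and read 5′ to 3′.
Ccr1: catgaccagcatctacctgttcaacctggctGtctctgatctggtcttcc
Ccr1l1: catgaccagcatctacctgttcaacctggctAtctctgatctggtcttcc
Over 949 aligned windows of that length the median number of mismatches was 10 and the highest 23, so most reads of that length from one coding sequence differ from the other at several bases.

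The promoters of Ccr1l1 and Ccr2, the genes that differed most between the genotypes after OGD, and of Ccr1, the nearest relative of Ccr1l1, are printed from 250 bases before to 50 after the start in RefSeq (GRCm38.p6). They were searched on both strands for ACGTG (the core of the hypoxia response element), TGANTCA (the AP-1 motif) and GGAAGT (a core bound by ETS factors such as PU.1), and matches are in capitals. The regions are chr9:123986666-123986965 on the minus strand, chr9:124101933-124102232 on the plus strand and chr9:123968643-123968942 on the minus strand.
Ccr1l1: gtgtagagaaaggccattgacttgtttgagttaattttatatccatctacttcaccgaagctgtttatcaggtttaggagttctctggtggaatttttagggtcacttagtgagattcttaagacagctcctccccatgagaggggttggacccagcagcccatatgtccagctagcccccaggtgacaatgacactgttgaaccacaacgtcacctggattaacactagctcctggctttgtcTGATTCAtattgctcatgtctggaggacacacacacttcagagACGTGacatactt
Ccr2: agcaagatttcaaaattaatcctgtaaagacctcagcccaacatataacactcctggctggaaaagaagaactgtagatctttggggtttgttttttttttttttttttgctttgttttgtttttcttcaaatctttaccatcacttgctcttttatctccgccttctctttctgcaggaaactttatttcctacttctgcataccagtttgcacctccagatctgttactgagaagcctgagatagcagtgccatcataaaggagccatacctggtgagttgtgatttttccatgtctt
Ccr1: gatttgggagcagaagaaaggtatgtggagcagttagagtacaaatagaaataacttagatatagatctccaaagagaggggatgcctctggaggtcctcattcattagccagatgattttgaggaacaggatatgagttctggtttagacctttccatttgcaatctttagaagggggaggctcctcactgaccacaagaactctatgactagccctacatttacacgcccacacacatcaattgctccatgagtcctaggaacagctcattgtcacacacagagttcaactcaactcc
The Ccr1l1 window held 1 ACGTG and 1 TGANTCA, which do not overlap each other, and the windows of Ccr1 and Ccr2 held none of the 3 motifs. Of all 32851 promoter windows of that length, 19.6% held ACGTG, 7.81% TGANTCA and 23.8% GGAAGT. The longest run of bases shared by the Ccr1l1 and Ccr1 windows was 8, and that shared by Ccr1l1 and Ccr2 was 9. The RefSeq start of Ccr1l1 lies 8.307 kb upstream of the single-exon gene model in GENCODE M21, which spans 123977243 to 123978408 and covers 1166 bases. If the counts were made on that model, reads from an upstream exon would not have entered them.

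Ccr1l1 had almost no counts in WT-OGD and was, per length, the first or the second most abundant of the 7 receptors in every library of the other groups. WT-OGD replicates 1, 2 and 3 had 26, 11 and 30 counts, or 0.634, 0.325 and 0.624 CPM. KO-OGD had 129, 115 and 132 CPM from 5448, 3490 and 4836 counts. After recovery the WT libraries had 50.3, 73.6 and 82.8 CPM and the KO libraries 156, 116 and 153 CPM. The KO libraries lay above the WT libraries at both time points with no overlap, and WT-OGD stood apart from all other groups. The group means were 0.527 ± 0.176, 125 ± 9.35, 68.9 ± 16.7 and 142 ± 22.4 CPM (SD, n = 3) for WT-OGD, KO-OGD and the WT and KO recovery groups in turn. After OGD the KO level was 229-fold that of WT, a log2 fold change of 7.84 (SE 0.251) that was the highest of all 18842 genes tested. After recovery it was 2.05-fold that of WT (log2 1.03, SE 0.167). In bulk samples, fewer cells of a type and less RNA per cell cannot be told apart.

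Within WT, Ccr1l1 rose 127-fold from OGD to recovery (log2 6.99, SE 0.25, adjusted p = 2.37e-10, edgeR's quasi-likelihood test with Benjamini-Hochberg adjustment). The same low WT-OGD values enter this rise and the genotype difference after OGD, so its p-value is not separate support. Within KO the groups overlapped, and the log2 change of 0.18 (SE 0.161) had an adjusted p of 0.362 in the same edgeR test. Without the 2 libraries of highest mitochondrial share that value was 0.295 (adjusted p = 0.0259, edgeR). The interaction of genotype and recovery, which subtracts the WT change from the KO change, was -6.81 (SE 0.301).

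Ccr1, which lies 8.6 kb from Ccr1l1 on the same strand, did not share that pattern. WT-OGD libraries had 105, 108 and 102 CPM and KO-OGD libraries 113, 111 and 118 CPM. WT-recovery had 436, 347 and 315 CPM, and KO-recovery had 501, 523 and 537 CPM. Every KO library was above every WT library at each time point, by 0.125 on the log2 scale after OGD (SE 0.101) and 0.508 after recovery (SE 0.101). Ccr1 rose 3.49-fold during recovery in WT (log2 1.80, SE 0.104, adjusted p = 2.77e-09, edgeR) and 4.55-fold in KO (log2 2.19, SE 0.105, adjusted p = 3.49e-10, edgeR). The interaction was 0.384 (SE 0.143). Ccr1l1 made up 0.299% to 0.609% of the summed counts of Ccr1l1 and Ccr1 in WT-OGD. That share is an upper limit there for Ccr1 reads assigned to Ccr1l1. In KO-OGD it was 50.7% to 53.3%, and after recovery 10.4% to 20.8% in WT and 18.1% to 23.7% in KO.

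Ccr2, on the plus strand 123.5 kb from Ccr1l1, was also lowest in WT-OGD. After OGD the WT libraries had 1.93, 1.03 and 1.5 CPM, from 79, 35 and 72 counts, and the KO libraries 6.82, 8.84 and 7.74 CPM. After recovery WT had 25.6, 26.0 and 30.0 CPM and KO 25.4, 22.7 and 32.1 CPM. The genotypes were separate after OGD and overlapped after recovery. The KO level after OGD was 5.16-fold that of WT (log2 2.37, SE 0.19), the 26th highest of all tested genes, and the difference after recovery was -0.02 on the log2 scale (SE 0.159). Ccr2 rose 18.1-fold during recovery in WT (log2 4.18, SE 0.192, adjusted p = 4.46e-10, edgeR) and 3.45-fold in KO (log2 1.79, SE 0.163, adjusted p = 2.93e-07, edgeR). The interaction was -2.39 (SE 0.248). For Ccr2 too, the low WT-OGD values enter both the genotype difference after OGD and the test of the WT rise.

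Most tested markers of monocytes, the cells in which Ccr2 is best known, did not run with Ccr2 between the genotypes after OGD. The summed level of the 10 listed markers after OGD was 140 to 212 CPM in WT and 70.7 to 123 CPM in KO. Of the 10 markers 8 were tested, and in the edgeR fit 3 were lower and 0 higher in KO after OGD, beside 6.52% and 0.966% of all genes. Among the lower ones was the chitinase-like gene Chil3 (log2 -2.13, SE 0.187, adjusted p = 1.62e-05). Ms4a4c alone went the other way (log2 1.10, SE 0.757), without a call. Both defining markers Ly6c2 and Plac8 stayed below the filter. During recovery all 8 tested markers rose in each genotype, beside 26.9% of all genes in WT and 29.3% in KO. The sum was 716 to 1130 CPM in WT-recovery and 1370 to 1540 CPM in KO-recovery. Fn1 by itself averaged 113 and 60.6 CPM in WT-OGD and KO-OGD. It averaged 511 and 1110 CPM in WT-recovery and KO-recovery, so each sum mostly follows that gene. The part of these markers in the rise of Ccr2 during recovery was not tested.

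Ccr3, 43.6 kb from Ccr1l1, was barely detected. After OGD its counts were 0, 2 and 0 for WT and 2, 0 and 1 for KO, and after recovery 1, 0 and 2 for WT and 5, 5 and 6 for KO. The KO-recovery libraries were above all others. The 16 counts of KO-recovery against 3 of WT-recovery gave a ratio, scaled to library size, of 4.03, given as a description with no test. Against the 3 counts of KO-OGD the ratio was 11.4, with an exact 95% binomial interval of 3.26 to 61.1. That interval pools the libraries of each group and covers counting error only. Of 8 markers of eosinophils, basophils and mast cells 1 was tested, the mast cell protease gene Cpa3, whose mean was 0.949 CPM in KO-recovery and 0.211 CPM in WT-recovery (log2 2.19, SE 0.549, adjusted p = 0.0101, edgeR). The sum of that list was 0.244 to 0.913 CPM in WT-recovery and 0.857 to 1.98 CPM in KO-recovery, and Fcer1a and Ms4a2 had no count in any library. Their part in the Ccr3 counts was not tested.

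Cx3cr1 varied least over the 12 libraries among the 6 tested receptors. After OGD the WT libraries had 79.3, 82.6 and 79.8 CPM and the KO libraries 87.0, 75.0 and 86.5 CPM. After recovery WT had 51.9, 58.6 and 56.1 CPM and KO 68.0, 64.5 and 64.9 CPM. The genotypes overlapped after OGD, where the log2 difference was 0.04 (SE 0.077), and were separate after recovery, where KO was higher by 0.242 (SE 0.08). Cx3cr1 fell by 0.534 on the log2 scale during recovery in WT (SE 0.079, adjusted p = 3.78e-05, edgeR) and by 0.332 in KO (SE 0.078, adjusted p = 0.00188, edgeR), and the interaction was 0.202 (SE 0.111). All 12 libraries came from cells with a reporter inserted at this gene. In the widely used form of that reporter EGFP replaces part of the coding exon, and counts over the whole annotated gene do not tell an intact transcript from the untranslated ends of a reporter transcript. The annotated span of Cx3cr1, 119901616 to 120069879 on the minus strand, runs over several other genes, and its exons overlap those of Gm33858 on the opposite strand. Strand handling in counting was not given in the sources used here, so its level is uncertain to that extent.

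Ccrl2 and Cx3cr1 were the receptors that fell during recovery, Ccrl2 by the larger amount. The WT libraries had 36.1, 38.0 and 34.8 CPM after OGD and 4.8, 5.92 and 6.58 CPM after recovery. The KO libraries had 46.4, 30.0 and 43.6 CPM after OGD and 7.09, 7.1 and 7.17 CPM after recovery. All recovery libraries lay below all OGD libraries. The KO libraries overlapped WT after OGD (log2 0.142, SE 0.129) and lay above them after recovery (log2 0.284, SE 0.177). The log2 change was -2.63 in WT (SE 0.159, adjusted p = 4.22e-09, edgeR) and -2.49 in KO (SE 0.15, adjusted p = 3.17e-09, edgeR). The interaction was 0.142 (SE 0.219).

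Xcr1 was close to the filter. After OGD it had 8, 5 and 8 counts in the WT libraries and 8, 10 and 17 in the KO libraries, with means of 0.17 ± 0.024 and 0.328 ± 0.138 CPM (SD, n = 3). After recovery WT had 8, 15 and 9 counts and KO 27, 7 and 21, with means of 0.832 ± 0.144 and 1.01 ± 0.396 CPM (SD, n = 3). The genotypes overlapped at both time points. Xcr1 rose during recovery in WT by 2.25 on the log2 scale (SE 0.451, adjusted p = 0.000571, edgeR) and in KO by 1.68 (SE 0.386, adjusted p = 0.00161, edgeR). The interaction was -0.57 (SE 0.587). Without KO-recovery replicates 1 and 3, the libraries with muscle and cartilage transcripts, the KO value was 0.789 (adjusted p = 0.367, edgeR). Of 7 dendritic cell markers 5 were tested, and in the edgeR fit 4 rose in WT and 3 in KO during recovery, beside 26.9% and 29.3% of all genes. Their sum was 17.2 to 18.8 CPM in WT after OGD and 32.8 to 40.3 CPM after recovery, and in KO 17.9 to 18.5 and 37.0 to 53.9 CPM. Clec9a, a marker of the dendritic cells that carry XCR1, was at 7.24 ± 0.321 and 16.5 ± 4.46 CPM (SD, n = 3) in WT-OGD and WT-recovery. Their part in the Xcr1 change was not tested.

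**Figure D1:**
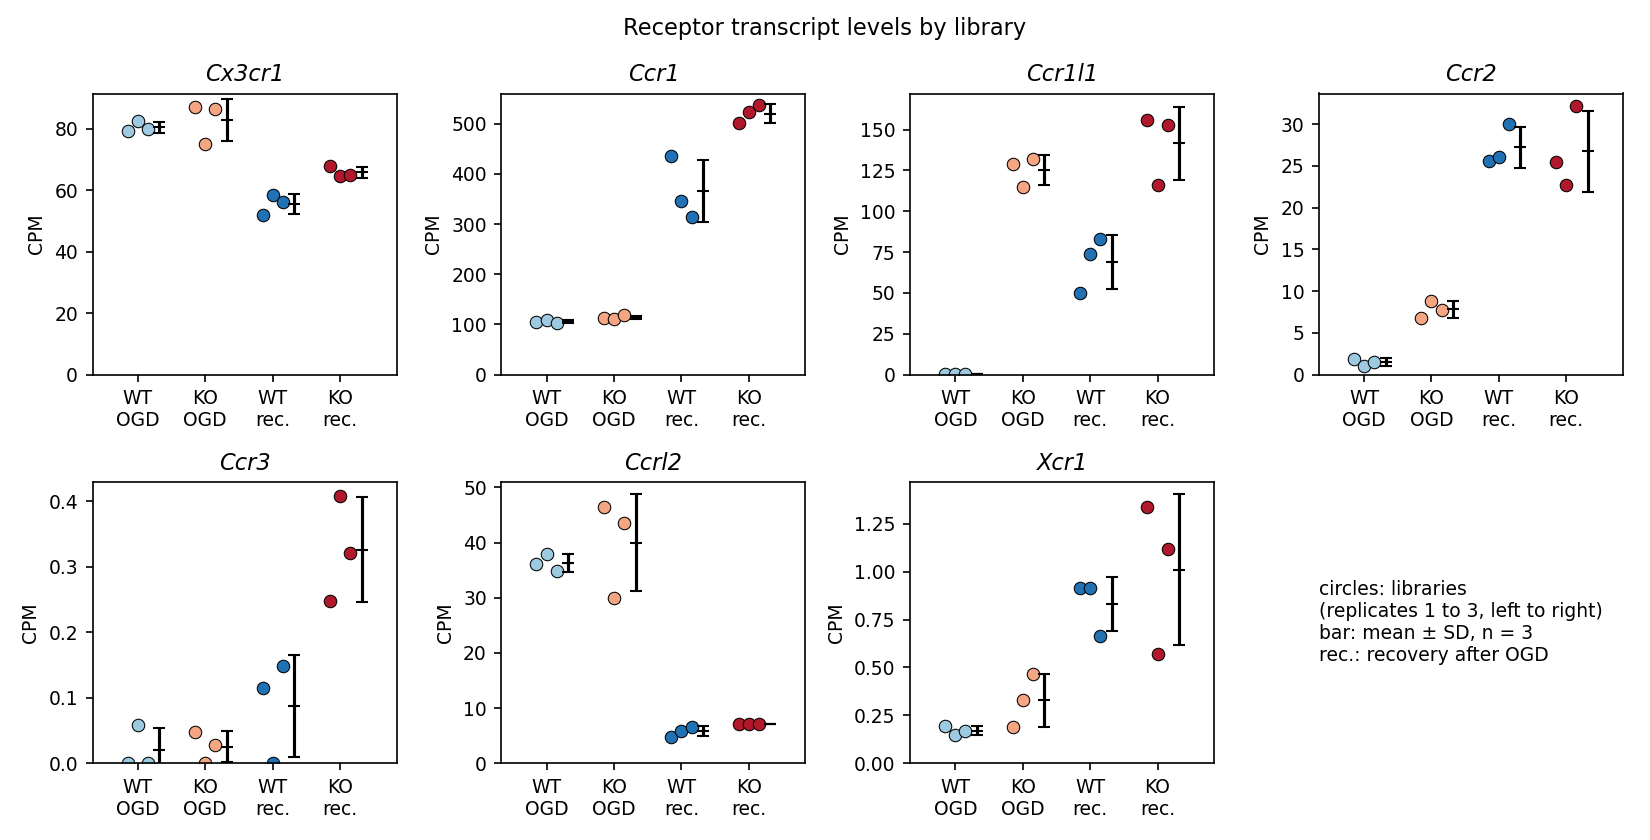
Level of each of the 7 receptor genes in CPM on linear axes, 1 circle per library in 4 groups, with the mean and SD of 3 libraries as bars. Ccr1l1 is near 0 in the 3 WT-OGD libraries and at 115 to 132 CPM in KO-OGD, Ccr2 has the same order after OGD, and Ccrl2 falls below 8 CPM in all 6 recovery libraries.

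Between the genotypes after OGD, 3 of the 6 receptors that passed the filter had all KO libraries above all WT libraries (Ccr1, Ccr1l1 and Ccr2) and 0 had them below. In that comparison 7.49% of all tested genes were called at an adjusted p below 0.05, 0.966% as higher and 6.52% as lower. The median log2 difference of the 6 was 0.524 beside -0.0094 for all genes. After recovery all KO libraries were above all WT libraries for 4 of the 6 (Cx3cr1, Ccr1, Ccr1l1 and Ccrl2), with a median of 0.31 beside 0.0079 for all genes, of which 22.2% were called, 10.1% as higher and 12% as lower. A call is not the same measure as separate libraries, and the share of all genes with separate libraries was not counted. Nothing is read from these receptor counts, since the genes were chosen with them known. The WT-recovery libraries also differed from all others in Xist, and that difference and genotype cannot be told apart in the recovery comparison. The same holds for Xist and time in the change during recovery in WT, and for the interaction, which includes the WT-recovery libraries.

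During recovery in WT all 6 receptors changed in the edgeR fit. Ccr1, Ccr1l1, Ccr2 and Xcr1 rose, and Cx3cr1 and Ccrl2 fell. Of all tested genes 56.8% were called in that comparison, 26.9% as higher and 29.9% as lower, so a call by itself is common there. The median size of the change of the 6 was 2.44 on the log2 scale beside 0.509 for all genes. During recovery in KO 3 rose (Ccr1, Ccr2 and Xcr1) and 2 fell (Cx3cr1 and Ccrl2), where 59% of all genes were called, 29.3% as higher and 29.6% as lower. The median size was 1.73 beside 0.528 for all genes. Neither median is read as a result, since these changes use the libraries by whose values the receptors were chosen. The interaction of the 6, given above without a test, ran from -6.81 for Ccr1l1 to 0.384 for Ccr1, and 5.25% of all genes were called for it, 2.89% as higher and 2.36% as lower. Nothing is read from that share, since the interaction holds the genotype differences by which the receptors were chosen. Recovery and OGD libraries also differed in depth and in the summed monocyte and neutrophil markers, whose part in these changes was not tested.

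**Figure D2:**
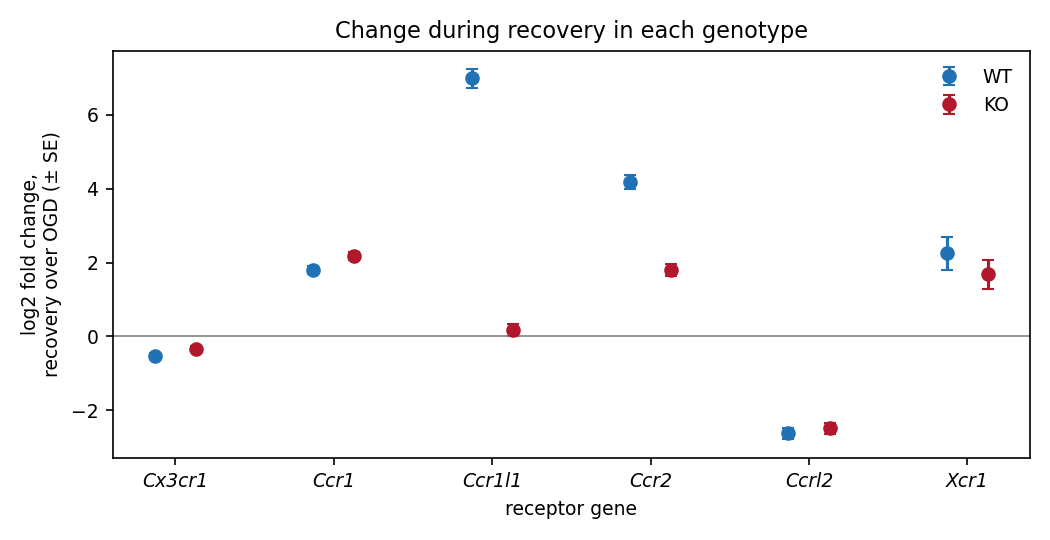
Log2 fold change from OGD to recovery for the 6 tested receptor genes (vertical axis), with its standard error as bars, in WT (blue) and KO (red). The genotypes lie far apart for Ccr1l1 (6.99 in WT and 0.18 in KO) and Ccr2 (4.18 and 1.79), and close together for the other 4 genes.

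Per kilobase of annotated exon (RPKM), the shares of Ccr1 and Ccr1l1 among the receptor transcripts spanned a narrower range over the libraries of each OGD group than over those of each recovery group. In WT-OGD Ccr1 held 52.9% to 53.3% of the summed RPKM of the 7 genes, Cx3cr1 25.4% to 26.1% and Ccrl2 19.8% to 20.4%, and Ccr1l1 held 0.388% to 0.788%. In KO-OGD Ccr1l1 led with 58.6% to 58.9%. Ccr1 led in all 6 recovery libraries, with 55.1% to 71.8% in WT and 53.2% to 60.6% in KO, followed by Ccr1l1 with 20.1% to 35.2% and 32.6% to 40.2%. After OGD the summed RPKM was 67.8 to 71.7 in WT and 167 to 192 in KO, and after recovery it was 202 to 214 in WT and 304 to 343 in KO, with no overlap between neighbouring groups. The mean level of Ccr2 was 0.22, 1.15, 4.02 and 3.95 RPKM in the same order of groups, and Xcr1 and Ccr3 were at or below 0.301 RPKM in every library. The order at the low end turns on few counts, and in WT-OGD the means of Ccr1l1 (0.452 ± 0.151) and Ccr2 (0.22 ± 0.0662 RPKM, SD, n = 3) were near each other.

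**Figure D3:**
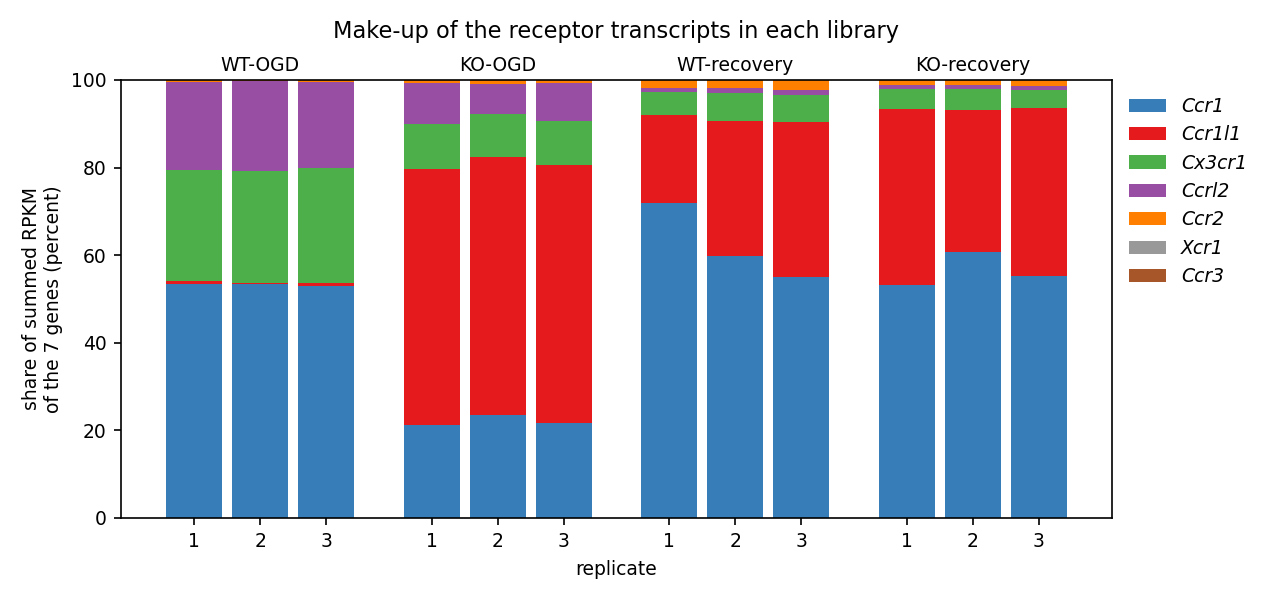
Share of each receptor in the summed RPKM of the 7 genes (percent, stacked bars from 0 to 100), 1 bar per library, by group. Ccr1l1 (red) is a thin line in WT-OGD, holds 58.6% to 58.9% in KO-OGD, and lies between 20.1% and 40.2% in the recovery libraries, while Ccrl2 (purple) and Cx3cr1 (green) shrink after recovery.

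The ligands of these receptors were read from the same cells. Of 16 listed ligand genes 12 were tested. In the edgeR fit 10 rose and 0 fell during recovery in WT, where 56.8% of all genes were called, with a median log2 change of 2.29 beside -0.0288 for all genes. In KO 10 rose and 1 fell, where 59% of all genes were called, with a median of 2.67 beside 2e-04. Ccl2, the main ligand of CCR2, was at 7.35 ± 1.65 and 7.98 ± 0.175 CPM in WT and KO after OGD and at 180 ± 39.2 and 422 ± 83.5 CPM after recovery (SD, n = 3). Its log2 change during recovery was 4.60 in WT (SE 0.212, adjusted p = 2.64e-09, edgeR) and 5.72 in KO (SE 0.222, adjusted p = 4.51e-10, edgeR). Ccl9, a ligand of CCR1, was at 1850 ± 104 CPM (SD, n = 3) in KO-recovery, and Ccl7, a ligand of CCR1 and CCR2, rose by 3.53 in WT and 4.97 in KO. Ccl12, another CCR2 ligand in mice, rose by 2.73 and 3.41.

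Between the genotypes 1 ligand was higher and 1 lower in KO after OGD, beside 0.966% and 6.52% of all genes. Ccl4 was higher by 0.665 on the log2 scale (SE 0.154, adjusted p = 0.0174, edgeR), a call lost without each of 4 OGD libraries in turn, at up to 0.0878. Cx3cl1, the ligand of CX3CR1, was lower (log2 -1.42, SE 0.286, adjusted p = 0.00701, edgeR), and without WT-OGD replicate 3 the adjusted p was 0.0573. After recovery 6 ligands were higher in KO (Ccl8, Ccl5, Ccl24, Ccl2, Ccl3 and Ccl9) and Cx3cl1 was again lower, in a comparison where 10.1% of all genes were called higher and 12% lower. Ccl8 differed by 2.55 (SE 0.433, adjusted p = 0.00123, edgeR), Ccl5 by 1.90 (SE 0.251, adjusted p = 0.000163, edgeR) and Cx3cl1 by -1.51 (SE 0.322, adjusted p = 0.00408, edgeR). The call for Ccl24, at 0.665 ± 0.142 CPM (SD, n = 3) in KO-recovery, had an adjusted p of 0.0355 in edgeR and 0.0664 in DESeq2. Cx3cl1 is expressed by neurons, and astrocyte markers moved the same way: 7 of 7 were lower in KO after OGD, beside 6.52% of all genes, and 5 of 7 after recovery, beside 12%. The summed astrocyte level after OGD was 104 to 158 CPM in WT and 36.7 to 59.0 CPM in KO, and after recovery 113 to 139 and 52.5 to 86.5 CPM. Their part in the Cx3cl1 difference was not tested.

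Of 18 other chemokine receptors 8 were tested, and Ccr8 had no count in any library. None was called between the genotypes after OGD, where 7.49% of all genes were. After recovery 1 was higher and 1 lower in KO, beside 10.1% and 12% of all genes. The higher one was the chemerin receptor Cmklr1 (log2 0.665, SE 0.163, adjusted p = 0.0107, edgeR), and the lower one was Ccr7, the receptor that takes dendritic cells to lymph nodes. Cmklr1 responds to the ligand that CCRL2 holds, and it rose during recovery by 1.66 in WT and 1.97 in KO while Ccrl2 fell. Without KO-recovery replicates 1 and 3 its genotype difference was 0.679 (adjusted p = 0.106, edgeR). Ccr7 had 88 counts over the WT-recovery group and 2 over the KO-recovery group, with an adjusted p of 0.000245 in edgeR. The ratio scaled to library size was 58.2 (exact 95% binomial interval 15.6 to 488). That interval pools the libraries of each group and covers counting error only. The interaction of Ccr7 was not called (log2 -5.9, SE 1.724, adjusted p = 0.0616, edgeR). Mean Ccr7 was 2.39 ± 0.604 CPM (SD, n = 3) in WT-recovery and at most 0.0395 CPM in the other groups. During recovery 2 of the 8 rose and 4 fell in each genotype, beside 56.8% of all genes called in WT and 59% in KO. The CXCL12 receptor Cxcr4 fell from 62.0 ± 7.76 to 21.7 ± 3.96 CPM in WT and from 60.8 ± 10.3 to 24.4 ± 3.46 CPM in KO (SD, n = 3), and the neutrophil receptor Cxcr1 fell from 109 and 74 counts over the OGD groups to 0, at least 11.4-fold lower in WT and at least 11.5-fold lower in KO with a floor of 3 counts per group. The median log2 change of the 8 was -0.095 in WT and -0.249 in KO.

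Of 29 genes of signalling downstream of the receptors 28 were tested. During recovery 10 rose and 3 fell in WT, and 13 rose and 6 fell in KO, in the edgeR fit. Of all tested genes 56.8% and 59% were called in those comparisons. The Rac GTPase Rac2 rose by 1.32 in WT and 1.13 in KO, beta-arrestin 2 (Arrb2) by 1.23 and 1.21, and the catalytic subunit of phosphoinositide 3-kinase gamma (Pik3cg) by 0.949 and 1.05. Rgs1, which shortens G protein signals of chemokine receptors, fell by 2.27 in WT (SE 0.131, adjusted p = 2.97e-09, edgeR) and by 0.699 in KO (SE 0.123, adjusted p = 0.000185, edgeR). Between the genotypes 1 gene was lower and 0 were higher in KO after OGD, beside 6.52% and 0.966% of all genes. It was Plcb2 (-0.456, SE 0.128, adjusted p = 0.0416, edgeR), a call lost without any 1 of the 6 OGD libraries. After recovery 6 were higher and 3 lower in KO, beside 10.1% and 12% of all genes. Rgs1 was higher by 1.29 (SE 0.129, adjusted p = 1.13e-05, edgeR) and the Rac activator Dock2 by 0.6 (SE 0.09, adjusted p = 0.000309, edgeR), and Rgs16 was lower (log2 -2.17, SE 0.578, adjusted p = 0.0206, edgeR). The Rgs16 call was lost without each of 5 of the 6 recovery libraries in turn (adjusted p 0.0515 to 0.0696, edgeR) and without the 2 libraries richest in mitochondrial counts (adjusted p = 0.123, edgeR). The median difference of the 28 genes was -0.024 after OGD and -0.011 after recovery.

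The labelled cell type was checked on 10 microglia markers, of which the summed level after OGD was 1970 to 1980 CPM in WT and 2110 to 2300 CPM in KO, and after recovery 1740 to 2050 and 1960 to 2210 CPM. Of the 10, 9 were tested, and in the edgeR fit 4 were lower and 0 higher in KO after OGD, beside 6.52% and 0.966% of all genes. Border macrophage markers summed to 850 to 878 and 851 to 967 CPM after OGD and to 1000 to 1330 and 1470 to 1600 CPM after recovery. Mrc1 alone averaged 749 and 774 CPM after OGD and was called in no comparison. Of the 8 tested, 6 rose and 1, Lyve1, fell during recovery in WT, and 6 rose and 0 fell in KO. Of all genes 56.8% and 59% were called there. After recovery 3 were higher and 0 lower in KO (Siglec1, Pf4 and F13a1), beside 10.1% and 12% of all genes. Neutrophil markers summed to 19.6 to 31.8 CPM in the OGD libraries. After recovery they summed to 372 to 515 CPM in WT and 661 to 827 CPM in KO. Those sums were carried by Mmp8, a secreted protease, at a mean of 419 and 715 CPM after recovery. Of the 8 neutrophil markers 3 were tested. In each genotype 2 rose and 1 fell during recovery, beside 56.8% of all genes called in WT and 59% in KO. Cxcr2 fell (log2 -3.255 in WT and -1.83 in KO), and Ly6g had no count in any library. Lymphocyte markers stayed at or below 0.379 CPM in sum, and none of the 8 was tested.

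The 6 receptors other than Ccr1l1 lie at different distances from it: Ccr1, Ccr3, Xcr1 and Ccr2 within 123.5 kb, Cx3cr1 at 3.907 Mb and Ccrl2 at 12.92 Mb. Among 25 tested genes within 1 Mb of Ccr1l1 that are not among the 7 receptors, 2 were called higher and 3 lower in KO after OGD, a share of 20.0% beside 9.3% over the 1032 tested genes of chromosome 9 and 7.49% over all genes. After recovery 2 were higher and 4 lower, a share of 24.0% beside 22.9% and 22.2%. The calls after OGD included the kinesin gene Kif15 (log2 -1.56, adjusted p = 0.000291, edgeR), Slc6a20b (0.288, adjusted p = 0.0364, edgeR), Gm17200 (-0.328, adjusted p = 0.0364, edgeR) and the pseudogene Gm47180 (-2.08, adjusted p = 0.0171, edgeR). The calls after recovery included Tgm4 (-0.448), the RNA exosome gene Exosc7 (0.469), Tmem158 (-1.30) and the overlapping pair Scp2-ps2 and Gm47162 (-0.525 and -0.524), whose reads cannot be told apart. Between 1 and 5 Mb, the range that holds Cx3cr1, 0 genes were higher and 1 was lower of 59 after OGD (1.69%), and 11 were higher and 1 lower after recovery (20.3%). The share near Ccr1l1 depends on the window: within 0.5 Mb it was 28.6% of 14 genes after OGD and 7.14% after recovery, and within 2 Mb 12.2% and 22.0% of 41 genes.

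**Figure D4:**
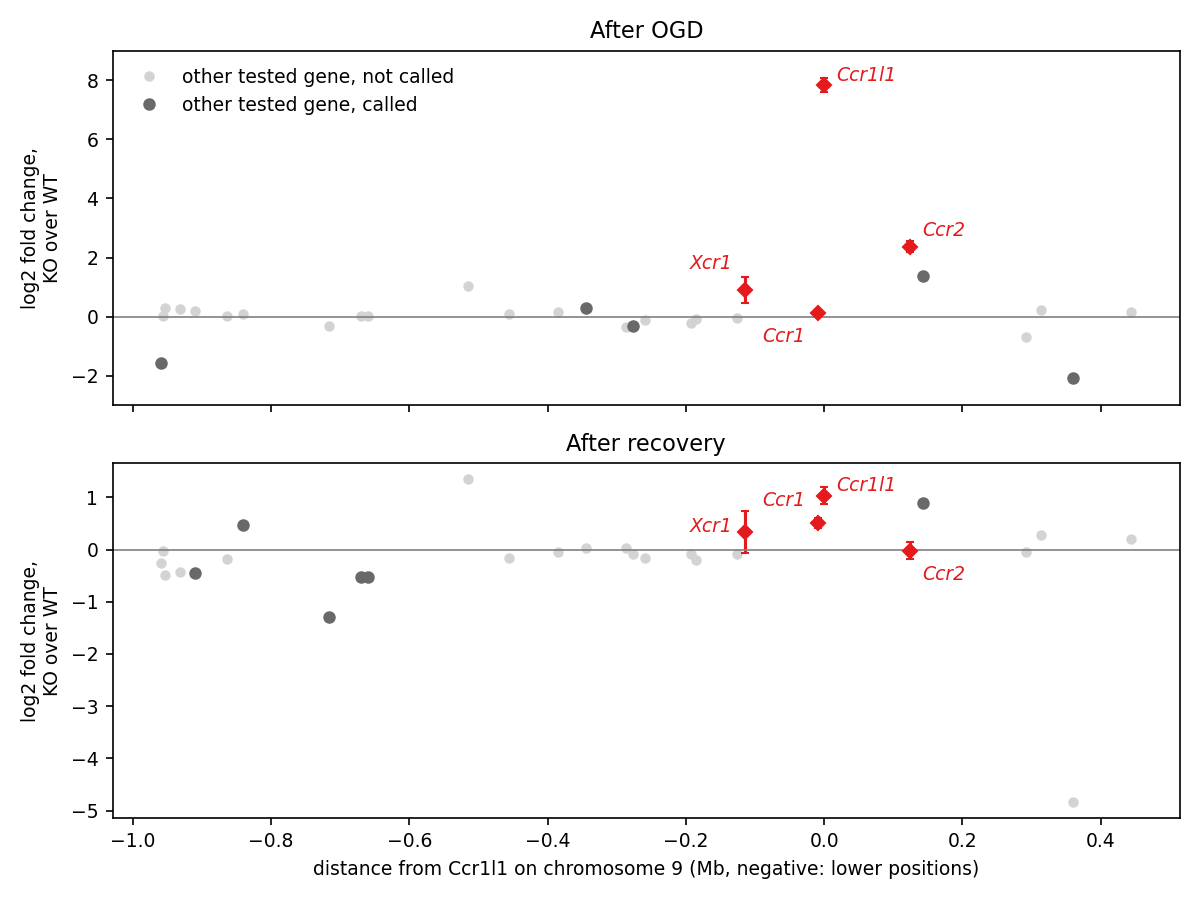
Log2 difference between KO and WT (vertical axes) after OGD (top) and after recovery (bottom) for tested genes against their distance from Ccr1l1 in Mb. Red diamonds with standard error bars are receptor genes, shown with no test, dark circles are other genes called at an adjusted p below 0.05, and light circles are other genes not called. After OGD Ccr1l1 stands at 7.84 and Ccr2 at 2.37, and most of the 25 other genes lie close to 0.

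Genes whose levels ran most like a receptor's over the 12 libraries were found by the root mean square difference of centred log2 CPM, as a description. The nearest to Cx3cr1 was Wdr48 at 0.061, against a spread of 0.242 for Cx3cr1 itself, and Wdr48 overlaps the annotated span of Cx3cr1 on the other strand. Arhgap17 and Thoc1 followed at 0.063 and 0.064. Zranb3 was nearest to Ccr1 at 0.078 beside a spread of 1.02, followed by Gm28800 and Nfkbid. For Ccrl2 the nearest were the autophagy receptor gene Sqstm1 (0.153), the apoptosis gene Bbc3 (0.168) and Slc43a3 (0.175), beside a spread of 1.29. For Ccr2 they were AC131675.2 (0.387), BC002163 (0.402) and Dcstamp (0.572), beside 1.72, and for Xcr1 they were Ctrl, Myrf and Gm7204 at 0.32 to 0.381, beside 0.926. No gene ran close to Ccr1l1. Its nearest were Fshr at 1.86, Ccr2 at 1.97 and AC131675.2 at 1.97, beside a spread of 3.29, and both Fshr and AC131675.2 had under 2.1 CPM on average in every group.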

How the data were processed

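RNA was measured by sequencing in 12 libraries, 3 in each of 4 groups, made with a stranded kit for total RNA per the labels' protocols, although another field names polyA RNA. The values, as deposited, are raw whole-number counts of reads for each gene, with no normalization. HISAT2, featureCounts and the build GRCm38 were used, per the submitters' processing notes, with versions and counting options not given in the sources used here. Of 55421 identifiers 55240 matched GENCODE M21 without the version number, and 181 had no symbol.

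Counts were analysed in R 4.3.3 with edgeR 4.0.16: filterByExpr, TMM scaling, a robust quasi-likelihood fit with 1 mean per group over all 12 libraries, and Benjamini-Hochberg adjustment over all 18842 genes tested. Genes were called at an adjusted p below 0.05. The fit was tested on simulated data. CPM uses TMM-scaled library sizes and RPKM divides CPM by the exon union of GENCODE M21. Replicates within groups differed by more than sampling noise (chi-square per degree of freedom 6.66 to 60.2). DESeq2 1.42.0 was an alternative, along with other scaling, no filter, a replicate block, the 6 libraries compared, thinned counts and libraries left out.

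The members and gene lists were chosen with earlier results of these data known. Named genes are the 7 receptors, up to 6 called genes per direction in each of 3 pathway lists, called genes within 1 Mb of Ccr1l1, markers as needed and the 3 nearest genes per receptor. One gene within 1 Mb, called in both genotype comparisons, is not reported here. Depth limits Ccr3 and Xcr1 most.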

Additional observations from a re-analysis of the deposited data

Results flagged for a closer look

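The interaction was called for 2 of 12 tested ligands, 5 of 28 signalling genes and 0 of 8 other chemokine receptors, beside 5.25% of all genes. It includes the WT-recovery libraries, which differed from all others in Xist, and that difference cannot be told apart from genotype and recovery here. In the ligand list the interaction was called for Ccl2 at 1.12 (adjusted p = 0.0327, edgeR) and Ccl9 at 0.54 (adjusted p = 0.0373, edgeR). In the signalling list it was called for Rgs1 at 1.57 (adjusted p = 0.000204, edgeR), Rgs2 at 0.85 (adjusted p = 0.0075), Rgs14 at 0.6 (adjusted p = 0.0229), Plcb2 at 0.68 (adjusted p = 0.0463) and Dock2 at 0.5 (adjusted p = 0.033). The calls of Ccl2, Ccl9, Rgs14, Plcb2 and Dock2 were each lost under several alternatives, such as leaving out WT-recovery replicate 2, where the adjusted p was 0.0694, 0.0907, 0.0795, 0.13 and 0.0918 in that order.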

How the results depend on the processing

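Of 593 values of the 6 tested receptors under alternative settings, 586 kept their sign. The 7 others changed sign. The genotype difference of Ccr2 after recovery, -0.02, was 0.016 to 0.072 under 4 settings, each leaving out 1 or 2 libraries. The interaction of Ccrl2, 0.142, was -0.031 without KO-OGD replicate 2. Without KO-recovery replicates 1 and 3, an alternative chosen after seeing the data, the recovery change of Ccr1l1 in KO was -0.139, and for Xcr1 the genotype difference after recovery was -0.534. Under that setting 2 other Xcr1 values moved but kept their sign. The interaction went from -0.57 to -1.44 and the recovery change in KO from 1.68 to 0.789. In addition, the recovery change of Ccr1l1 in KO was 0.295, and called, when the 2 libraries richest in mitochondrial counts were dropped. With libraries thinned to the smallest total the genotype difference of Xcr1 after OGD was 2.10 and its interaction -1.64. The cause was not tested.

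Genes called over the whole table moved more. After OGD 1411 were called between the genotypes, 2148 with no filter, 670 with thinned libraries and 524 to 1742 with 1 library left out, the lowest without WT-OGD replicate 3. After recovery 4175 were called, 2756 from the 6 libraries compared alone and 2653 to 5279 with 1 left out. For the interaction 989 were called, 1517 by DESeq2, 1980 with no filter, 558 with thinned libraries and 479 to 1770 with 1 left out. Replicate numbers did not pair the libraries: the deviations of 18 same-numbered pairs correlated at -0.228 to 0.156, and 2 of 12 libraries correlated best with their own number. With a replicate block 657 genes were called for the interaction, 1179 between the genotypes after OGD and 3641 after recovery. Of 74 results for named list genes, 19 lost their call under at least 1 alternative. Depth limits Ccr3, with 2 to 16 counts per group, and Xcr1, with 21 to 55.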
